A study of Mus musculus with 12 samples.

Results

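The 34 genes described here are microglial and innate immune genes. They were chosen by symbol from a list, by a rule that uses no measured value but with earlier results of these data known, and all 34 were found among the 24452 gene symbols of the count tables. They fall into 6 roles, namely microglial identity (8 genes), the C1q complex (3), receptors and adaptors of myeloid cells (7), pattern recognition (3), phagocytosis and the lysosome (6), and cytokines with the NF-kB inhibitor (7). Of these, 29 had enough counts to be tested, out of 14739 symbols tested in all. The genes that were not tested are Ccl2, Ccl4, Il1a, Il1b and Tnf.

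RNA was measured by stranded total RNA-Seq in whole somatosensory cortex of C57BL/6 mice on postnatal day 7, 8 h after the last of the intraperitoneal injections of ethanol or saline. The 12 libraries form 4 groups of 3, which are WT saline, WT ethanol, p53 KO saline and p53 KO ethanol (KO saline and KO ethanol below). All mice were labelled male and were offspring of p53 heterozygotes, and the KO mice carried the germline Trp53tm1Tyj allele in every cell type, so no group separates a loss of p53 in microglia from a loss in other cells. The tissue was not sorted, so fewer microglia and less RNA per microglial cell cannot be told apart in any value below.

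Microglia are the resident macrophages of the brain. In the first postnatal weeks they clear dying cells and prune synapses, and the survival signal that keeps them alive comes through the receptor encoded by Csf1r. They tag and remove material through complement C1q, sense lipids and debris through TREM2 and its signalling partner TYROBP (DAP12), and engulf apoptotic cells through the receptor kinases MERTK and AXL. Cytokine genes such as Il1b and Tnf are induced through Toll-like receptors and NF-kB, and Nfkbia encodes the inhibitor that NF-kB itself induces as a brake.

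A part of the promoters of these genes share a short sequence that the choice of genes did not use. GAGGAA is a core of the motif bound by PU.1, the transcription factor that macrophages and microglia depend on. RefSeq promoter sequences (build GRCm38.p6) were matched by symbol for 25 of the 34 genes, in 28 entries. GAGGAA or its complement TTCCTC was found in the 250 bases before the start in 16 of these 28 entries (57.1%), one for each of 16 genes, and in 23.3% of all 32851 promoters. The windows of C1qb (chr4:136886201-136886450, minus strand), C1qc (chr4:136892915-136893164, minus strand), Aif1 (chr17:35176053-35176302, minus strand) and Trem2 (chr17:48346151-48346400, plus strand) are shown because these genes hold the match and belong to the C1q genes, receptors and adaptors that the results turn on. The capitals mark the match, and each window runs 5′ to 3′ and ends at the base before the start of transcription in the RefSeq table.
C1qb: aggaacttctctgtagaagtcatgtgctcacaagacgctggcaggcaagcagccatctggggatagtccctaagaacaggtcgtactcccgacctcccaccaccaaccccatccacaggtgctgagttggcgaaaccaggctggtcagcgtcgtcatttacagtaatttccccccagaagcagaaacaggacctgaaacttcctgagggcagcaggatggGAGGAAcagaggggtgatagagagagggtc
C1qc: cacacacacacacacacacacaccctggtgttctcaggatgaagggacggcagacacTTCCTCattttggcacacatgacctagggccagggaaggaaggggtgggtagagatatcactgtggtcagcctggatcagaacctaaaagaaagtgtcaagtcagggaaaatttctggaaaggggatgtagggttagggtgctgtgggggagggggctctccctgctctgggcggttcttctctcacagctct
Aif1: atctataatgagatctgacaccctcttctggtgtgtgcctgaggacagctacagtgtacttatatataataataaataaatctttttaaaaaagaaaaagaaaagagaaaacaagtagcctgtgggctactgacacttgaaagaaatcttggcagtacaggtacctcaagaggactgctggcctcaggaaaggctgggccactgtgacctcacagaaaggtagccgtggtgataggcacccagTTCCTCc
Trem2: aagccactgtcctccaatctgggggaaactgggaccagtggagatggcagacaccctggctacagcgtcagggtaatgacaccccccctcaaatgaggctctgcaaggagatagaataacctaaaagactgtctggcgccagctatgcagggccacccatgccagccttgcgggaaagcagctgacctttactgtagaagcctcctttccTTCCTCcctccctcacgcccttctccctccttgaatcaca
The match began 30 bases before the start in C1qb, 193 in C1qc, 7 in Aif1 and 40 in Trem2. It was not found in the windows of Cx3cr1, P2ry12, Siglech, Olfml3, Mertk, Lgals3, Tlr2, Il1b and Nfkbia. The genes without a promoter entry were Tmem119, Csf1r, Gpr34, C1qa, Tyrobp, Cd14, Tlr4, Ccl2 and Ccl4. A second search, for the NF-kB-type sequence GGGANNTTCC or its complement GGAANNTCCC, found it in 2 of the 25 genes, Nfkbia and P2ry12, and in 1.21% of all promoters. The window of Nfkbia (chr12:55492648-55492897, minus strand) is shown because Nfkbia is the 1 member with an unadjusted p under 0.05 for ethanol in KO mice, and the match begins 29 bases before its start.
Nfkbia: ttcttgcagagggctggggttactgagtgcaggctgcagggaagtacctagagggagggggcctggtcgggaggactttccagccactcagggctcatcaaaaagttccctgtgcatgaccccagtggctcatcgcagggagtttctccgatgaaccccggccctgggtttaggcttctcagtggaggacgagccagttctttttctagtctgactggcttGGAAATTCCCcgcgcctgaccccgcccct
These matches describe letters in a window and do not show that a factor was bound.

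Several libraries differed from the rest in ways that touch the results. Total counts ranged from 719735 to 17066392 (23.7-fold), and the lowest totals were those of replicate 1 of KO ethanol (719735) and replicate 1 of WT saline (1953154). These 2 are also the only libraries whose names open with L. Xist was at 870 and 1759 CPM (normalised counts scaled to a common library size) in WT ethanol replicates 1 and 2, with 4 Y-linked genes at 0, although the labels give these mice as male, whereas Xist was at most 2.13 CPM in the other 10 libraries. Trp53, the targeted gene, had at most 261 counts in a WT library and 14.0 to 453 in KO libraries, so its counts did not separate the genotypes. The share of them assigned to transcript NM_001127233 was 7.01% to 23.1% in WT libraries and 48.3% to 70.6% in 5 of the 6 KO libraries. In the library labelled KO ethanol replicate 1 it was 7.01% of 14.0 counts (exact 95% binomial interval 0.181% to 33.9%), within the WT range. The share was also 7.01% in WT saline replicates 1 and 2 and WT ethanol replicate 3, although their Trp53 counts differed. Counts per transcript are estimates, so an equal share at different counts may not be a measurement of each library. This share and its interval therefore do not decide the genotype of KO ethanol replicate 1. Tests of the members below are therefore given with and without these libraries where they change them. The pathway lists, the markers of other cell types and the relation to transcript length are given for all 12 libraries only.

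The 34 genes together made up 0.0183% to 0.115% of the counts of a library. Their summed level was 184, 986 and 1346 CPM in WT saline replicates 1, 2 and 3. It was 503, 278 and 446 CPM in WT ethanol, 548, 475 and 244 CPM in KO saline, and 575, 315 and 289 CPM in KO ethanol libraries. WT saline thus held both the lowest and the highest library, and the other 3 groups lay between them. Over the 29 tested genes, WT saline replicate 1 was the lowest library for 17 and WT saline replicate 3 the highest for 11, compared with 17.1% and 7.94% of all symbols tested. WT saline replicate 2 was the highest for 7 (Aif1, Tyrobp and Gpr34 among them), which is 24.1% of the members, near the 20.4% of all symbols. The library labelled KO ethanol replicate 1 was the highest for 6 (20.7%, and 10.8% of all symbols). The median SD of log2(CPM + 0.5) over the members was 1.46 in WT saline, against 0.685 for all symbols, and 0.692, 0.557 and 0.812 in WT ethanol, KO saline and KO ethanol. In every comparison with WT saline, therefore, the spread among the 3 control libraries was wide.

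**Figure D1:**
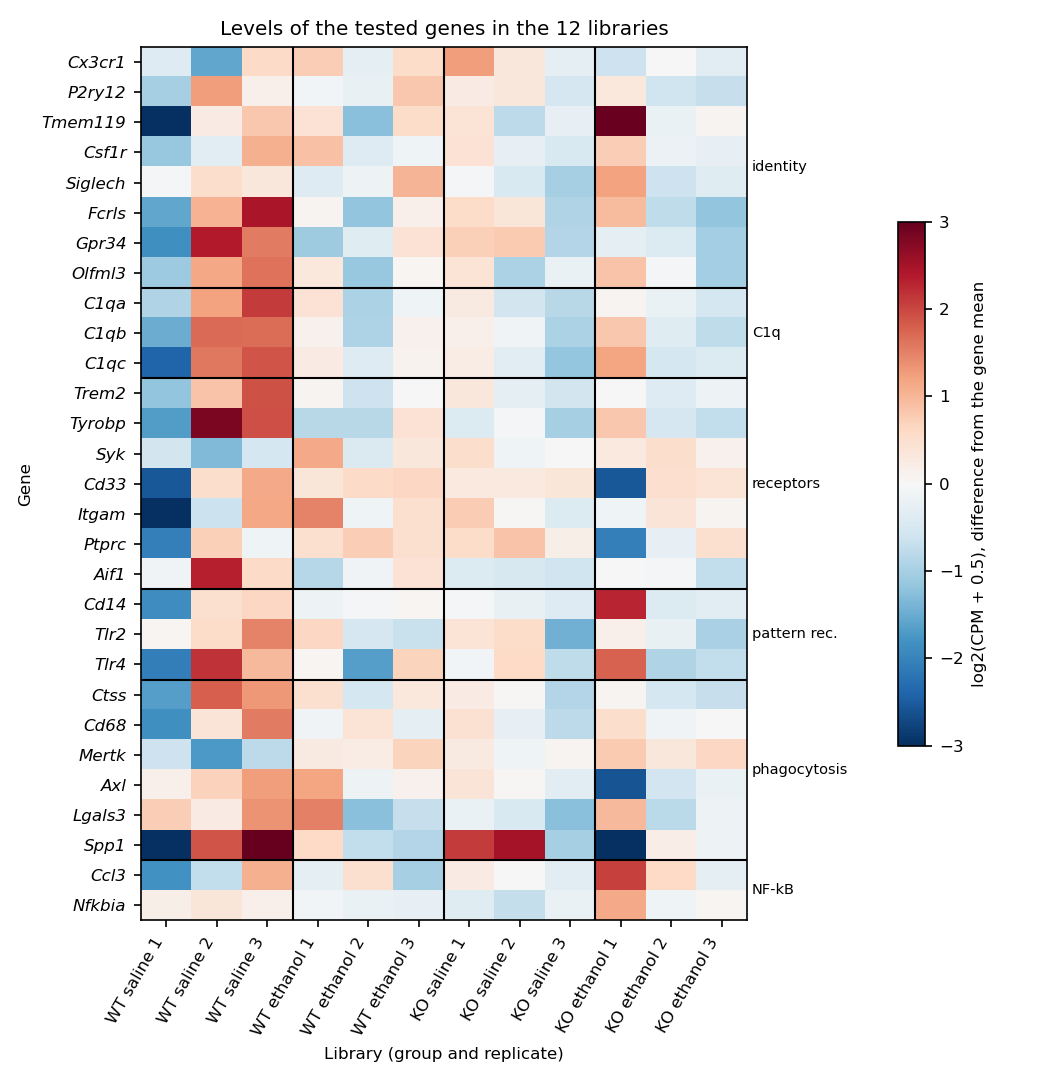
Heat map of the 29 tested genes (rows, grouped by role) in the 12 libraries (columns), as log2(CPM + 0.5) minus the gene's mean over the libraries (colour, cut at -3 and 3). WT saline replicate 1 is low for most genes while WT saline replicates 2 and 3 are high, and Mertk, Syk and Nfkbia do not share this pattern.

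On the deposited scale per transcript length (RPKM), the order of the levels was led by Tyrobp (46.0 ± 35.9 RPKM, SD over the 12 libraries), Spp1 (34.3 ± 48.4), C1qc (28.5 ± 17.6), C1qb (26.0 ± 15), C1qa (18.9 ± 13.2) and Ctss (17.6 ± 11.3). The purinergic and survival receptors P2ry12 and Csf1r followed at 11.6 ± 4.92 and 10.7 ± 4.94 RPKM. Tmem119, a microglia-specific membrane protein, was at 2.52 ± 3.52 RPKM, the integrin gene Itgam at 0.920 ± 0.604 and Tnf, the lowest, at 0.050 ± 0.0595. No 2 neighbours in this order of 34 genes differed by more than the larger of their SDs. The deposited RPKM had nearly the same distribution in every library. Of 20504 transcript ranks above 0 in all libraries, 99.8% held values equal within 0.1%. These levels are therefore not scaled by depth and length alone, and can differ in pattern from the CPM. All 8 identity genes had counts in at least 11 of the 12 libraries, so microglial RNA was present throughout, with Tmem119 at 0 counts in WT saline replicate 1.

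C1q is the recognition protein that starts the classical complement pathway, and its A, B and C chains are encoded by neighbouring genes on chromosome 4. C1qa (chr4:136895916-136898844, mm10) was measured at 10.8, 48.3 and 89.4 CPM in WT saline and at 27.7, 10.4 and 18.6 CPM in WT ethanol libraries. In KO mice it was at 24.7, 13.8 and 11.4 CPM after saline and 21.7, 17.8 and 14.2 CPM after ethanol. C1qb (chr4:136880145-136886177) was at 9.77, 94.1 and 92.4 CPM in WT saline and 31.4, 14.8 and 31.1 CPM in WT ethanol libraries. Its KO levels were 31.6, 26.6 and 14.6 CPM after saline and 50.1, 21.9 and 16.7 CPM after ethanol. WT saline replicates 2 and 3 exceeded every other library for C1qb, and replicate 1 lay below every other library. C1qc (chr4:136889802-136892914) had the same shape, with 5.14, 89.5 and 110 CPM in WT saline, 35.0, 22.3 and 31.8 in WT ethanol, 34.2, 23.3 and 12.9 in KO saline, and 66.9, 20.2 and 22.1 in KO ethanol libraries. Per length, the ratio of C1qb to C1qa was 0.925 to 2.08 and that of C1qc to C1qa was 0.525 to 2.64 over the 12 libraries.

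**Figure D2:**
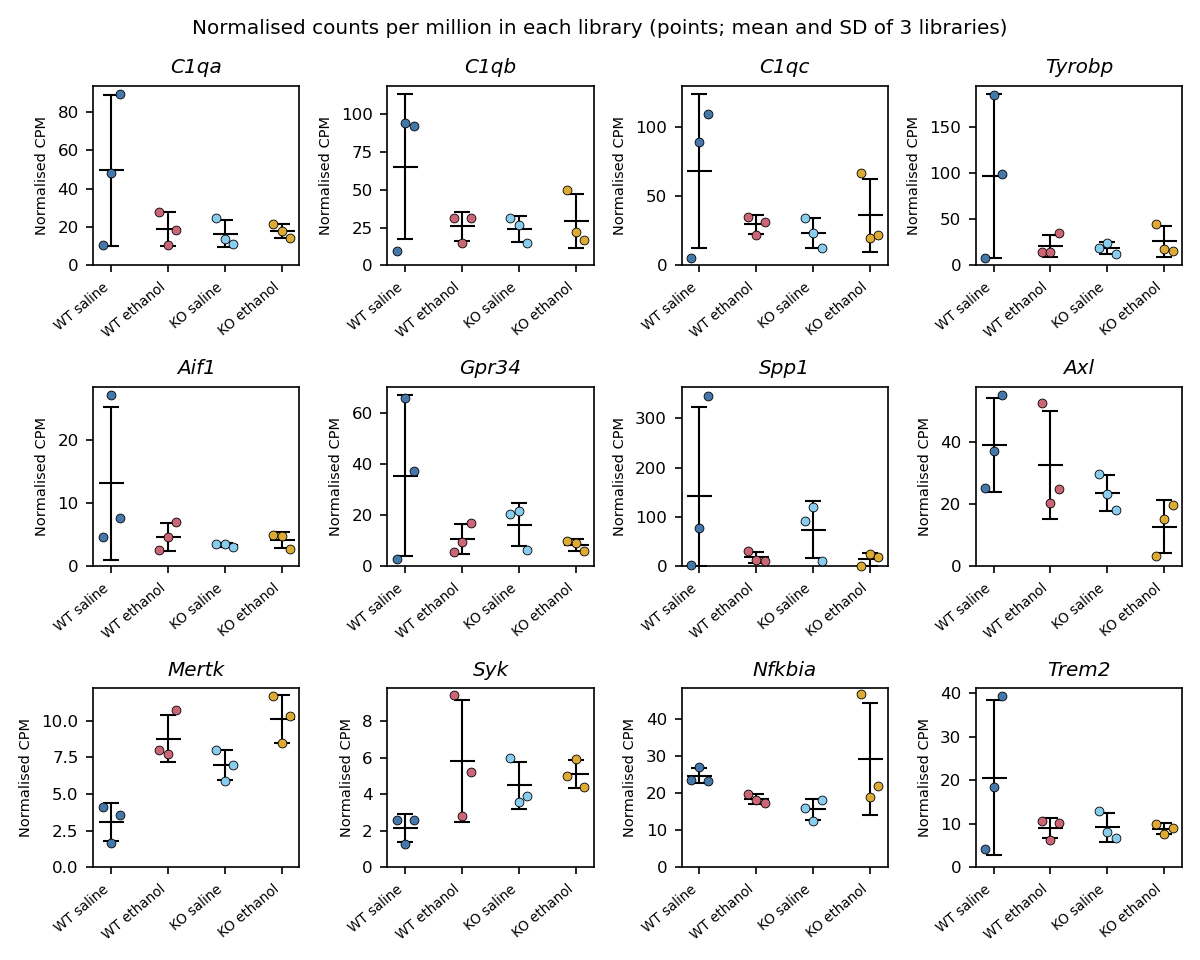
Normalised CPM of 12 members in each library (points; x axis, group; y axis from 0, scaled per gene), with the mean and SD of 3 libraries (bars, cut at 0). WT saline spreads from the lowest to the highest values for C1qb, C1qc and Tyrobp, whereas all 3 WT saline libraries lie below the others for Mertk.

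The comparison of ethanol with saline in WT mice asks how the genes respond where p53 is present. Most members lay lower after ethanol (22 of 29), with a median log2 fold change of -0.54 against 0.06 over all symbols tested. No member passed an adjusted p of 0.05 in edgeR (0 of 29, and 0.0746% of all symbols). DESeq2 called 1 of 34 (3.30% of all symbols) and limma on log2(RPKM + 1) 0 (0% of all symbols). At an unadjusted p under 0.05, 5 members were lower (8.36% of all symbols were) and 2 were higher (9.99% of all symbols were). At the study's own level, an adjusted p under 0.30, 10 members were called, 8 lower and 2 higher, beside 22.5% of all symbols.

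The largest difference among the receptors and adaptors was that of Tyrobp, the adaptor through which TREM2 signals (chr7:30413788-30417579). It was at 7.71, 185 and 98.6 CPM in WT saline and 14.2, 14.2 and 34.7 CPM in WT ethanol libraries. The groups overlap only because of WT saline replicate 1, and the log2 fold change was -2.21 (SE 0.77, adjusted p = 0.208 in edgeR). Aif1, which encodes the actin-bundling protein IBA1 used to stain microglia (chr17:35170992-35176001), was at 4.63, 27.0 and 7.65 CPM in WT saline and 2.55, 4.57 and 6.95 CPM in WT ethanol libraries. Its log2 fold change was -1.51 (SE 0.62, adjusted p = 0.231), and 1 library, WT saline replicate 2, stood above the rest. C1qa had a log2 fold change of -1.40 (SE 0.59, adjusted p = 0.239), and C1qb and C1qc had -1.35 (SE 0.65, adjusted p = 0.284) and -1.21 (SE 0.74, adjusted p = 0.378). Trem2, the receptor itself, had -1.22 (SE 0.58, adjusted p = 0.281).

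Syk, the kinase that TYROBP recruits (chr13:52583437-52648792), was higher rather than lower, at 2.57, 1.29 and 2.60 CPM in WT saline and 9.40, 2.81 and 5.19 CPM in WT ethanol libraries. The groups did not overlap, with a log2 fold change of 1.45 (SE 0.56, adjusted p = 0.218). The nearest values, 2.60 CPM in WT saline and 2.81 CPM in WT ethanol, came from 35 and 16 counts. Replicates 1 and 2 of WT saline had 5 and 7 counts of Syk, so this separation is narrow. Mertk, which recognises apoptotic cells through bridging ligands (chr2:128698997-128802188), was at 4.11, 1.65 and 3.57 CPM in WT saline (8, 9 and 48 counts) and 7.98, 7.73 and 10.7 CPM in WT ethanol libraries. This 2.89-fold difference (log2 1.53, SE 0.46, adjusted p = 0.185) also separated the groups, and its unadjusted p was under 0.05 in each of the 24 alternative fits that tested it. Those fits reuse the same libraries, so they are not independent of each other. Spp1, the secreted phosphoprotein osteopontin (chr5:104435111-104441053), varied most, with 2.06, 78.8 and 346 CPM in WT saline and 32.0, 12.3 and 11.2 CPM in WT ethanol libraries, so that its log2 fold change of -2.94 had an SE of 1.20 (adjusted p = 0.232). The related kinase Axl (log2 -0.27, SE 0.50), the lysosomal protease gene Ctss (-0.93, SE 0.61), Cd68 (-0.67, SE 0.64) and Lgals3 (-0.51, SE 0.76) did not pass an unadjusted p of 0.05.

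Among the 8 identity genes, 6 lay lower and 2 higher, with a median log2 fold change of -0.10. Only Gpr34, a lysophospholipid receptor, had an unadjusted p under 0.05. It was at 3.09, 66.0 and 37.5 CPM in WT saline and 5.66, 9.49 and 17.0 CPM in WT ethanol libraries (log2 -1.75, SE 0.75, adjusted p = 0.244). Csf1r (log2 0.06, SE 0.53), Tmem119 (-0.01, SE 0.94), P2ry12 (-0.18, SE 0.52) and the fractalkine receptor gene Cx3cr1 (0.62, SE 0.54) had log2 fold changes close to or above 0, as did Siglech (-0.00), a lectin gene of microglia. Fcrls (-1.62, SE 0.78, adjusted p = 0.285) and Olfml3 (-1.16, SE 0.68), both marker genes of microglia, lay lower without an unadjusted p under 0.05. Gpr34 lies on the plus strand of chromosome X (13632769-13640858) within the span of Cask on the minus strand, and P2ry12 (chr3:59216271-59262831) within that of Med12l on the opposite strand. The strand setting of the counting is not given in the sources used here. The pattern recognition genes Cd14, Tlr2 and Tlr4 had log2 fold changes of -0.40 to -1.43, none with an unadjusted p under 0.05.

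Without the 2 libraries named with L, the same comparison gave 12 of 30 members at an adjusted p under 0.05, 11 lower and 1 higher, beside 21.5% of all symbols in that fit. The 11 lower members were Tyrobp (log2 -2.83, SE 0.46, adjusted p = 0.00667), C1qb, C1qc, C1qa, Spp1, Gpr34, Trem2, Fcrls, Ctss, Aif1 and Olfml3, and the higher one was Mertk (log2 1.64, SE 0.44, adjusted p = 0.0250). Leaving out WT saline replicate 1 alone gave 8 members at this level (7.68% of all symbols in that fit), with Tyrobp at an adjusted p of 0.0235. When WT saline replicate 2 was left out instead, 0 members reached it and 3 of 30 had an unadjusted p under 0.05 (Mertk, Spp1 and C1qa). Over all symbols it was 0 and 1683 of 15038. Leaving out WT ethanol replicate 2 also gave 0 and 3 members, beside 11 and 2200 of 15026 symbols. Without the 2 WT ethanol libraries that hold Xist, only Mertk had an unadjusted p under 0.05 (log2 1.78, SE 0.62, adjusted p = 0.978), and 1 WT ethanol library was left, whose spread is assumed to be like that of the other groups. In that fit Tyrobp had a log2 fold change of -1.53 (SE 1.18).

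In KO mice, ethanol was compared with saline to ask the same question where p53 is absent. The members were close to evenly divided, with 16 higher and 13 lower after ethanol and a median log2 fold change of 0.07 against 0.01 over all symbols. None passed an adjusted p of 0.05 or 0.30 in edgeR (0% of all symbols at either level), and DESeq2 and limma on log2(RPKM + 1) called 0 at 0.05. Of the 29 members, 1 was higher at an unadjusted p under 0.05 (1.15% of all symbols were) and 0 were lower (2.01% were). It was Nfkbia, which encodes the NF-kB inhibitor (chr12:55489409-55492647), at 16.2, 12.6 and 18.3 CPM in KO saline and 46.8, 19.1 and 22.0 CPM in KO ethanol libraries. The groups did not overlap, and the log2 fold change was 0.82 (SE 0.38, adjusted p = 0.999). It was 0.39 (SE 0.32, adjusted p = 0.999) without the library labelled KO ethanol replicate 1, which was the highest of all 12. The unadjusted p of Nfkbia was under 0.05 in 9 of 25 alternative fits.

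The other members of the KO comparison had wide errors. C1qa, C1qb and C1qc had log2 fold changes of 0.07 (SE 0.60), 0.19 (SE 0.67) and 0.54 (SE 0.76). Tyrobp was at 19.1, 24.8 and 12.5 CPM in KO saline and 45.1, 17.9 and 15.2 CPM in KO ethanol libraries, and Aif1 at 3.60, 3.46 and 3.10 CPM and 5.01, 4.82 and 2.79 CPM, both with overlapping groups. Mertk was at 7.98, 5.91 and 7.01 CPM in KO saline and 11.7, 8.45 and 10.3 CPM in KO ethanol libraries, so the groups did not overlap, but its log2 fold change of 0.51 (SE 0.44) had an adjusted p of 0.999. Syk was at 5.97, 3.57 and 3.91 CPM and 5.01, 5.92 and 4.38 CPM. Spp1 was at 91.1, 121 and 10.3 CPM in KO saline and 0, 24.2 and 18.8 CPM in KO ethanol libraries, and Gpr34 at 20.6, 21.7 and 6.49 CPM and 10.0, 9.16 and 5.90 CPM. Tmem119 reached 31.8 CPM in the library labelled KO ethanol replicate 1, from 19.0 counts, against 3.08 and 3.87 CPM in the other KO ethanol libraries. Its log2 fold change was 1.66 (SE 1.02) with that library and 0.09 (SE 0.88) without it. Without both libraries named with L, 0 of 30 members had an unadjusted p under 0.05, beside 603 of 14967 symbols, and the median of the members was -0.19.

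**Figure D3:**
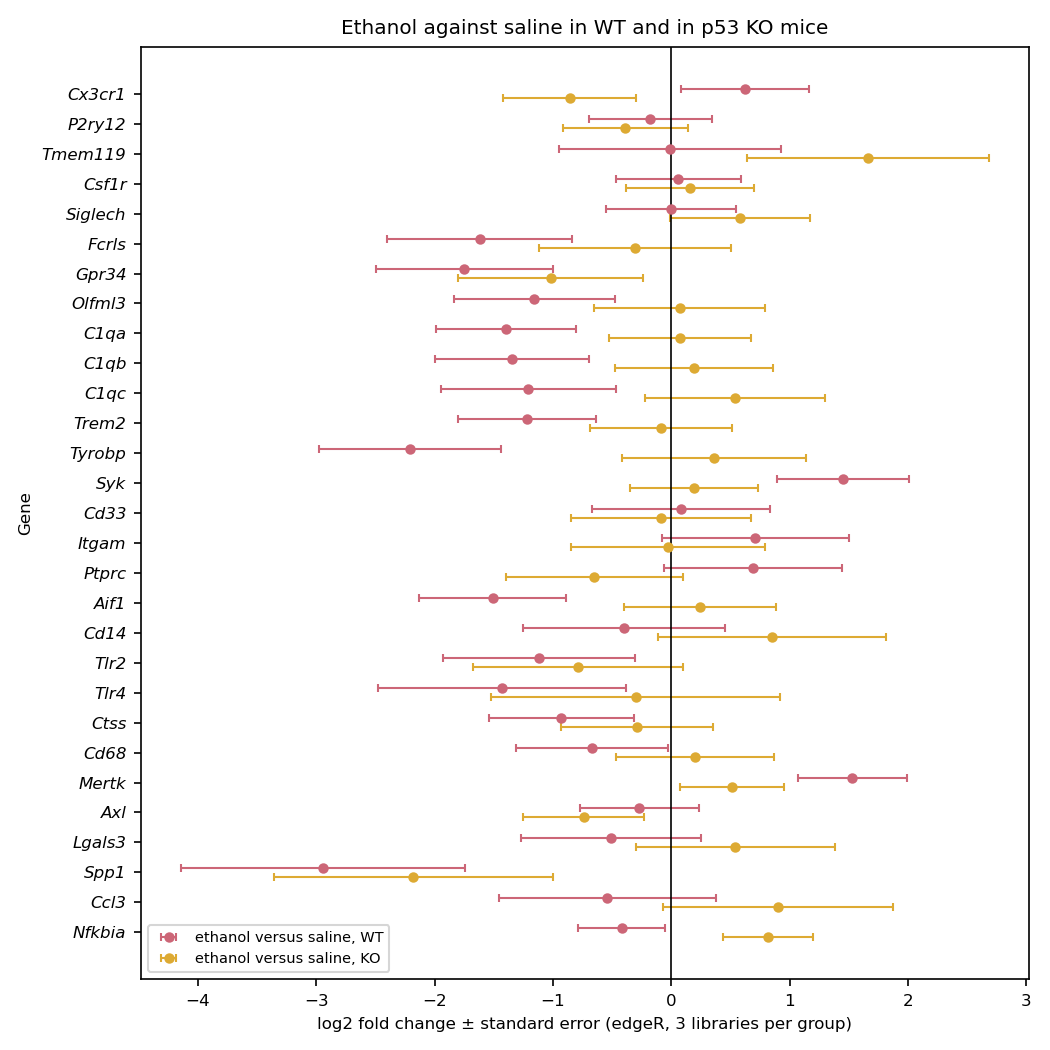
Log2 fold change of ethanol against saline (x axis, with its standard error from edgeR) for the 29 tested genes (y axis, by role) in WT and in KO mice. In WT mice 22 of 29 genes lie below 0, with Mertk and Syk the highest, and in KO mice 13 of 29 lie below 0.

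Whether the ethanol effect itself differed by genotype was tested as the Genotype x Treatment interaction (the KO effect minus the WT effect). It was above 0 for 21 of 29 members, with a median of 0.87 on the log2 scale against -0.11 over all symbols. No member had an adjusted p under 0.05 in edgeR (0 of 29, and 0% of all symbols), nor in DESeq2 (1.88% of all symbols) or in limma on log2(RPKM + 1) (0%). At an unadjusted p under 0.05, 2 members were higher (7.50% of all symbols were) and 0 lower (7.67% were), and 1 had an adjusted p under 0.30 (11.1% of all symbols). Tyrobp had an interaction of 2.57 (SE 1.09, adjusted p = 0.299), and Nfkbia one of 1.24 (SE 0.54, adjusted p = 0.305). Nfkbia was at 23.7, 27.2 and 23.5 CPM in WT saline and 19.9, 18.1 and 17.5 CPM in WT ethanol libraries, the narrowest spread of the tested members in both groups. Without the library labelled KO ethanol replicate 1 the interaction was 2.03 (SE 1.10, adjusted p = 0.544) for Tyrobp and 0.81 (SE 0.43, adjusted p = 0.540) for Nfkbia, and 0 members had an unadjusted p under 0.05. With WT saline replicate 1 left out, 7 of 30 members had one, beside 3538 of 14996 symbols, a similar share. Among the 7 were Tyrobp (log2 3.15, adjusted p = 0.0841) and C1qa, C1qb and C1qc. Leaving out WT saline replicate 2 gave 0 members, and so did leaving out the 2 WT ethanol libraries with Xist, a fit in which the 1 remaining WT ethanol library is again assumed to vary like the other groups. Leaving out WT ethanol replicate 2 or any 1 of the KO saline libraries gave 1, beside 1473 to 2277 symbols in these fits. The fit without both libraries named with L gave 6 of 30, all above 0, with Tyrobp at 2.63 (SE 0.64, adjusted p = 0.0892). In that fit 3206 of 14967 symbols had an unadjusted p under 0.05, a similar share. It was 1481 of 15007 symbols without the library labelled KO ethanol replicate 1 and 1963 of 15038 without WT saline replicate 2.

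The KO and WT mice given saline were compared for a difference between the genotypes in the absence of ethanol. This comparison shares its 3 WT saline libraries with that of ethanol in WT mice, so the 2 are not independent. Here 24 of 29 members lay lower in KO mice, with a median log2 fold change of -0.81 against 0.04 over all symbols. No member passed an adjusted p of 0.05 in edgeR (0 of 29, and 0.0543% of all symbols). DESeq2 called 2 of 34 (4.91% of all symbols) and limma on log2(RPKM + 1) 0 (0% of all symbols). At an unadjusted p under 0.05, 4 members were lower (10.5% of all symbols) and 1 higher (9.14%), and 10 had an adjusted p under 0.30 (25.8% of all symbols). Aif1 had the smallest p (log2 -1.97, SE 0.62, adjusted p = 0.176), and its KO saline libraries (3.60, 3.46 and 3.10 CPM) all lay below the WT saline libraries. Tyrobp (log2 -2.37, SE 0.78, adjusted p = 0.176), C1qa (-1.59, SE 0.60, adjusted p = 0.190) and C1qb (-1.44, SE 0.65, adjusted p = 0.244) were also lower, with overlap of the groups through WT saline replicate 1. C1qc had -1.56 (SE 0.75, adjusted p = 0.263). Mertk was higher in KO saline libraries without overlap (log2 1.19, SE 0.45, adjusted p = 0.193), and Syk was as well (log2 1.06, SE 0.56, adjusted p = 0.299).

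By role, all 3 C1q genes, all 3 pattern recognition genes and 7 of the 8 identity genes lay lower in KO saline, the exception being Cx3cr1 (log2 0.80, SE 0.54). Lgals3, a galectin of phagocytic cells, had a log2 fold change of -1.65 (SE 0.79, adjusted p = 0.262), with KO saline libraries at 2.72, 2.17 and 1.03 CPM below the WT saline libraries at 5.66, 3.86 and 8.91 CPM. Without the libraries named with L, 11 of 30 members had an adjusted p under 0.05 (25.3% of all symbols), 10 lower and 1 higher, led by Tyrobp (log2 -2.98, SE 0.46, adjusted p = 0.00421). With WT saline replicate 1 alone left out there were 7 (14.5% of all symbols). With WT saline replicate 2 left out there were 0, with 2 at an unadjusted p under 0.05, beside 1647 of 15038 symbols. Leaving out KO saline replicate 2 or 3 gave 3 members at an unadjusted p under 0.05, beside 2019 of 15031 and 2252 of 15023 symbols.

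KO and WT mice were also compared after ethanol. Of the 29 members, 18 lay lower in KO mice, and the median log2 fold change was -0.19 against -0.03 over all symbols. Axl (chr7:25756500-25788733) was the 1 member lower at an unadjusted p under 0.05 (2.26% of all symbols were), and 0 were higher (0.977% were). The study lists an Axl entry among its top genes lower in KO than in WT mice given saline. That entry was not examined on its own here. Summed over its 3 transcripts, Axl after saline was at 25.2, 37.1 and 55.1 CPM in WT and 29.7, 23.4 and 18.1 CPM in KO libraries. After ethanol it was at 52.6, 20.4 and 25.0 CPM in WT and 3.34, 15.2 and 19.8 CPM in KO libraries, without overlap (log2 -1.21, SE 0.51, adjusted p = 0.982). In the library labelled KO ethanol replicate 1 the value came from 2 counts, and without that library the log2 fold change was -0.90 (SE 0.48, adjusted p = 0.955). Its unadjusted p was also not under 0.05 without WT ethanol replicate 1 or KO ethanol replicate 2. None passed an adjusted p of 0.05 or 0.30 in edgeR (0% of all symbols at either level), and DESeq2 and limma on log2(RPKM + 1) called 0 at 0.05. The standard errors of the C1q genes in this comparison were 0.60 to 0.76 on the log2 scale.

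Averaged over both genotypes, the Treatment main effect had 1 member higher (4.62% of all symbols) and 2 lower (2.47%) at an unadjusted p under 0.05. The higher member was Mertk (log2 1.02), and the lower ones were Spp1 (-2.56) and Gpr34 (-1.38). The Genotype main effect had 1 member higher (4.00% of all symbols) and 2 lower (3.67%), which were Mertk (0.68) on the one side and Axl (-0.97) and Aif1 (-1.10) on the other. Neither main effect had a member at an adjusted p under 0.05 in edgeR (0% of all symbols), in DESeq2 or in limma on log2(RPKM + 1). Without the libraries named with L, 7 members had one for Treatment (8.22% of all symbols) and 8 for Genotype (16.2% of all symbols).

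Inflammatory cytokine transcripts were near the limit of detection. Tnf was at 0 counts in all 3 WT saline libraries, 4, 2 and 2 counts in WT ethanol, 0, 1 and 2 counts in KO saline, and 0, 3 and 3 counts in KO ethanol libraries. A count of 0 allows up to 3 counts, which is 0.223 to 1.54 CPM in a single WT saline library (intervals and limits here cover counting error only). The WT ethanol libraries were at 0.185 to 0.351 CPM. Limits of single libraries therefore do not decide whether the groups differed in Tnf. Il1b, the gene of interleukin-1 beta, had 0 to 5.00 counts in a library and 23.0 in all. Il1a had 75.0 counts in all, and the monocyte and T cell chemoattractants Ccl2 and Ccl4 had 37 and 29. In an exact permutation test (two-sided, 3 libraries against 3, whose smallest possible p is 0.1), p was 0.1 for Tnf and 0.400 for Il1b in WT ethanol against WT saline. Ccl3, the 1 chemokine gene tested, had 175 counts in all and log2 fold changes of -0.54 (SE 0.92) in WT and 0.90 (SE 0.97) in KO mice.

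Other genes of the same pathways were taken from lists. At an unadjusted p under 0.05, 9.99% of all symbols were higher and 8.36% lower in WT ethanol against WT saline, and 9.14% were higher and 10.5% lower in KO saline against WT saline. Of 40 further microglial and myeloid genes tested, 1 was higher and 2 lower in WT ethanol against WT saline at an unadjusted p under 0.05, with a median log2 fold change of -0.15. Among them were Fcer1g, the Fc receptor gamma chain that signals as TYROBP does (log2 -1.71, SE 0.65, adjusted p = 0.216) and the guanine nucleotide exchange factor gene Dock2 (1.56, SE 0.71, adjusted p = 0.261). In KO saline against WT saline the list again had 1 higher and 2 lower. Of 11 complement genes beyond C1q, 2 were lower at an unadjusted p under 0.05 in WT ethanol and 4 in KO saline (8.36% and 10.5% of all symbols were), with medians of -1.28 and -0.88. Cr1l, the complement regulator also named Crry, was lower in both (log2 -1.28, adjusted p = 0.215, and -1.49, adjusted p = 0.176), and C1ra, a protease that binds C1q, had a log2 fold change of -2.03 (SE 0.84, adjusted p = 0.234) in WT ethanol. These comparisons share the WT saline libraries. In KO ethanol against KO saline 0 of the 11 had an unadjusted p under 0.05.

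The list of the phagocytic and disease-associated state had 16 of 17 genes lower in WT ethanol, 4 of them at an unadjusted p under 0.05 (8.36% of all symbols were) and 1 higher (9.99%), with a median of -0.89 against 0.06 over all symbols. B2m, the light chain of MHC class I (log2 -1.88, adjusted p = 0.216), and the cathepsin gene Ctsz (-1.23, adjusted p = 0.216) were among the lower ones, and Timp2, an inhibitor of metalloproteinases (1.62, adjusted p = 0.211), was the higher one. The Toll-like receptor and NF-kB list (29 tested) had 2 higher and 0 lower in WT ethanol, which were Traf3 (log2 1.70, SE 0.44, adjusted p = 0.153) and Tab2 (0.94, SE 0.31, adjusted p = 0.201), both adaptors of receptor signalling. It had 3 higher in KO saline, and its medians were 0.28 and 0.27 against 0.06 and 0.04 over all symbols. The cytokine and chemokine receptors had 1 higher and 1 lower of 15 in both comparisons, namely Il6ra (log2 3.04, SE 1.14, in WT ethanol) and Ccr1 (-3.20, SE 1.14). Of 10 interferon response genes 0 had an unadjusted p under 0.05 in WT ethanol. In KO saline 1 was higher, Xaf1 (log2 1.72, SE 0.65), and 2 were lower, Ifit3 (-2.12, SE 0.85) and Ifi27 (-1.41, SE 0.66), with a median of 0.42 over the list. Of the 8 ligands of the microglial receptors (Csf1, Il34, Cx3cl1, Tgfb1, Gas6, Pros1, Apoe and Clu), 0 had an unadjusted p under 0.05 in either comparison. No gene of these 7 lists passed an adjusted p of 0.05 in edgeR in the pairwise or interaction contrasts.

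Markers of some other cell types also differed between the groups. The 7 red blood cell markers summed to 458, 2772 and 900 CPM in WT saline and to 102 to 298 CPM in WT ethanol and 64.8 to 181 CPM in KO saline libraries, and all 7 were lower at an unadjusted p under 0.05 in both comparisons with WT saline. In KO ethanol they summed to 1329, 65.4 and 60.7 CPM. The 8 markers of border macrophages, which also express several of the members, summed to 17.5, 168 and 49.7 CPM in WT saline, 23.5 to 53.8 CPM in WT ethanol and 17.9 to 28.8 CPM in KO saline libraries. Of these 8, 5 were lower in KO saline at an unadjusted p under 0.05 and 1 (Pf4) in WT ethanol. The neutrophil markers summed to at most 9.19 CPM (Elane and Ly6g were at 0 in all libraries), and the lymphocyte markers to at most 2.02 CPM. The 5 monocyte markers summed to 33.4 to 247 CPM, and in WT saline to 47.8 to 137 CPM, with the highest of that group in replicate 1, the library of the group in which the members summed lowest. Of these 5 markers only Plac8 and Vcan had enough counts to be tested, and they went opposite ways. Plac8 was lower at an unadjusted p under 0.05 in WT ethanol (log2 -2.57, SE 1.09) and in KO saline (-4.06, SE 1.19) against WT saline. Vcan had 0.44 (SE 0.53) and 0.99 (SE 0.53), so the sum does not stand for every marker in it. Choroid plexus markers ranged from 0 to 4999 CPM, the highest in WT ethanol replicate 1, and their median log2 fold change was 3.18 in WT ethanol and 2.22 in KO saline against WT saline. The medians in these comparisons were 0.67 and 0.79 for the oligodendrocyte lineage, 0.67 and 0.34 for endothelial and mural cells, 0.17 and -0.05 for astrocytes and -0.16 and -0.07 for neurons. The part of these cells in the members' differences was not tested.

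**Figure D4:**
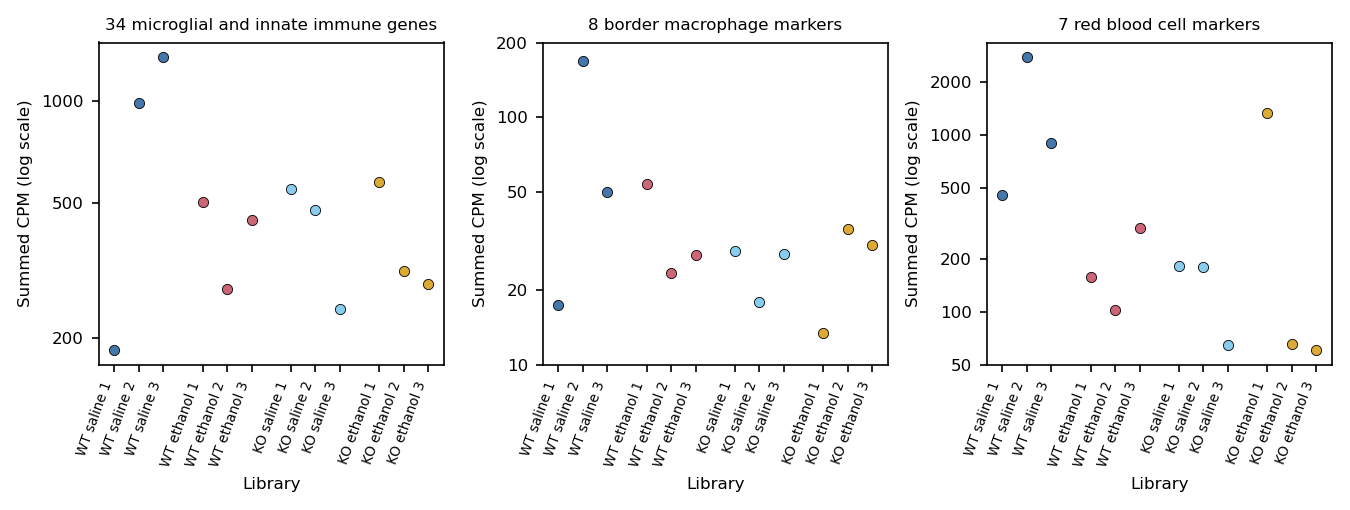
Summed CPM (y axis, log scale) of the 34 genes, of 8 border macrophage markers and of 7 red blood cell markers in each library (x axis). WT saline replicate 2 is the highest library for both marker sets, and WT saline replicates 2 and 3 are the 2 highest for the 34 genes.

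The fold changes of the members also followed transcript length. Across the 29 members, Spearman's rho between transcript length and log2 fold change was 0.67 in WT ethanol against WT saline and 0.69 in KO saline against WT saline, and across 14673 symbols it was 0.48 and 0.54. It was -0.39 (-0.45 over all symbols) in KO ethanol against KO saline. These are descriptions across genes, which are not independent replicates and share libraries. The 11 members shorter than 1500 bases (the C1q genes, Tyrobp, Aif1 and Trem2 among them) were all lower in WT ethanol, with a median of -1.22 against -0.75 over 2723 symbols of that length. Of the 8 members of at least 3000 bases (Mertk, Syk and Axl among them) 2 were lower, with a median of 0.65 against 0.40 over 6532 symbols. In a fit that removed each library's trend with length and GC content, Mertk had a log2 fold change of 1.10 (SE 0.50, adjusted p = 0.315), Gpr34 of -1.48 (SE 0.53, adjusted p = 0.247), Spp1 of -2.48 (SE 1.12, adjusted p = 0.313) and Axl of -1.03 (SE 0.41, adjusted p = 0.280) in WT ethanol against WT saline. Tyrobp had -1.17 (SE 0.62, adjusted p = 0.367) and Syk 0.71 (SE 0.50, adjusted p = 0.477) in that fit, and Aif1 had -0.67 (SE 0.44, adjusted p = 0.448), C1qa -1.16 (SE 0.57, adjusted p = 0.344) and C1qb -1.04 (SE 0.64, adjusted p = 0.421). In KO saline against WT saline none of the 5 members named above with an unadjusted p under 0.05 kept one in that fit. They were Tyrobp (log2 -0.98, SE 0.61), Aif1 (-0.91, SE 0.44), C1qa (-1.12, SE 0.57), C1qb (-0.86, SE 0.64) and Mertk (0.74, SE 0.49). Axl, at -0.73 (SE 0.50) before the trend was removed, was the 1 member with an unadjusted p under 0.05 after it (log2 -1.40, SE 0.42, adjusted p = 0.241). The part of length in these differences beyond that fit was not tested.

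**Figure D5:**
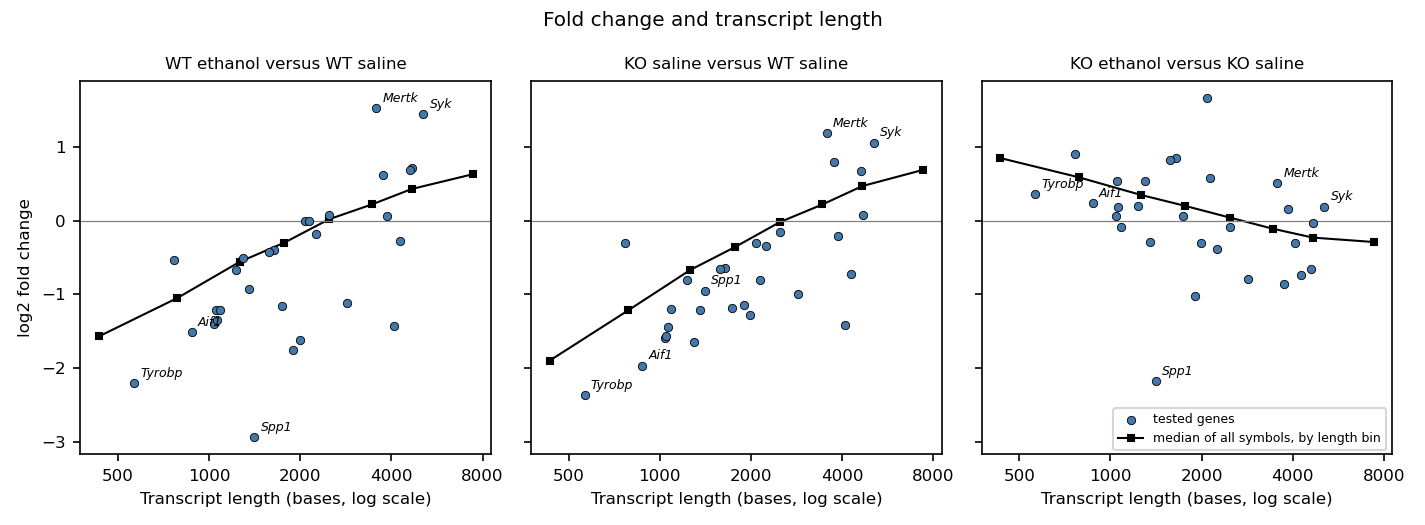
Log2 fold change (y axis) against transcript length in bases (x axis, log scale) for the 29 tested genes (points) in 3 comparisons, with the median of all symbols in length bins (line). In both comparisons with WT saline short genes such as Tyrobp and Aif1 lie low and the long genes Mertk and Syk highest, and the medians of all symbols rise with length, while in KO mice these medians fall with length.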

How the data were processed

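The authors sequenced stranded total RNA libraries (single-end, NextSeq) and used TopHat with Bowtie2 for alignment to mm10. Transcripts of RefSeq were then quantified with the Partek Flow software, whose version, counting and strand settings are not given in the sources used here. The deposited files give estimated counts and RPKM per transcript. The RPKM share nearly one distribution over the 12 libraries (99.8% of transcript ranks equal within 0.1%). This bears on the level order, the C1q ratios and the limma fits. Part of the samples were taken by laser microdissection and the rest by hole punch, which the labels do not assign to libraries. Groups of 3 libraries follow the labels, and replicates were numbered in accession order. The labels do not say which animals or litters the libraries came from, so p-values measure the spread between these samples.

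Estimated counts of 35840 transcripts were summed per symbol, rounded, filtered (filterByExpr, 14739 of 24452 symbols) and fitted in edgeR 4.0.16 (R 4.3.3; TMM factors, quasi-likelihood test, 1 mean per group over all 12 libraries), with Benjamini-Hochberg adjustment over all tested symbols. CPM are TMM-scaled. The Treatment and Genotype effects and their interaction follow the study's factors, and an adjusted p of 0.30 is its level. DESeq2 1.42.0 and limma 3.58.1 (on log2(RPKM + 1) and log2(RPKM + 0.1)), other filters and scalings, the highest transcript of each symbol, removal of length and GC trends, the first letter of the library name and each library left out were alternatives. Leaving out the 2 WT ethanol libraries with Xist was chosen after seeing the data. Scripts were tested on simulated data. The members and lists were chosen with earlier results of these data known. Values in every library are given for 11 named members (Mertk, Aif1, Tyrobp, C1qa, C1qb, C1qc, Syk, Spp1, Axl, Gpr34 and Nfkbia), being those with an unadjusted p under 0.05 in a contrast or belonging to C1q, and each list is represented by its genes of smallest p, of which 1 is not reported here. Total counts were 719735 to 17066392 per library, so that 3 counts, the limit a count of 0 allows, are 0.170 to 5.01 CPM.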

Additional observations from a re-analysis of the deposited data

Results flagged for a closer look

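For 2 of the 29 members the ethanol effect differed between KO and WT mice by the interaction term of edgeR at an unadjusted p under 0.05. Of all 14739 symbols tested, 2237 did, a larger share than among the members. The interaction was 2.57 on the log2 scale for Tyrobp (SE 1.09, adjusted p = 0.299) and 1.24 for Nfkbia (SE 0.54, adjusted p = 0.305), so neither passed an adjusted p of 0.05. Tyrobp was lower after ethanol in WT mice (log2 -2.21) and at 0.36 in KO mice, and Nfkbia was at -0.42 in WT and 0.82 in KO mice. Neither interaction kept an unadjusted p under 0.05 without the library labelled KO ethanol replicate 1 (2.03 with SE 1.10 and 0.81 with SE 0.43) or without WT saline replicate 2 (1.76 with SE 1.05 and 1.20 with SE 0.57). With each library's trend with length and GC content removed, they were 0.81 (SE 0.88) and 1.17 (SE 0.59), again not under it. They were 2.63 (SE 0.64, adjusted p = 0.0892) for Tyrobp and 0.90 (SE 0.42) for Nfkbia without both libraries named with L, and 3.15 (SE 0.73, adjusted p = 0.0841) and 1.33 (SE 0.55) without WT saline replicate 1. Groups of 3 libraries are too small for a test of single outlying libraries.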

How the results depend on the processing

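No paired analysis was possible because the labels give the groups no shared replicate numbers. For the members named with an unadjusted p under 0.05, 268 of 390 values under the alternatives stayed under it, 122 did not, and 0 changed sign. These results were picked for that p in the fit of 12 libraries, and the alternatives reuse its libraries, so they are not independent support. The members' median log2 fold change was -0.54 for ethanol in WT mice, and -0.93 without the libraries named with L, -0.91 without WT saline replicate 1 and -0.20 without WT saline replicate 3. For genotype after saline it was -0.81, and -1.20 and -0.35 without the libraries named with L and without WT saline replicate 3. For the interaction it was 0.87, and 0.43 without TMM factors, 1.32 without WT saline replicate 1 and 0.22 without WT saline replicate 3. The cause of the moves below was not tested. Over all 14739 symbols in the fit of 12 libraries, 2704 (ethanol in WT mice), 2890 (genotype after saline), 2237 (interaction), 1045 (Treatment) and 1130 (Genotype) had an unadjusted p under 0.05. Without the libraries named with L these rose to 5582, 5863, 3206, 4581 and 5115 of 14967. Counts below are of members with an unadjusted p under 0.05 unless an adjusted p is named. For the alternatives listed next, the count over all symbols of the same fit follows in brackets. The fits tested 14739 symbols, apart from 19271 in DESeq2, 19364 with 1 count in any library, 7624 with 10 counts in every library and 14637 with the highest transcript. The number was 15058 with the first letter as a covariate, 14967 without the libraries named with L and 13951 to 14406 with only the groups compared. DESeq2 and the filter of 1 count tested all 34 members. For ethanol in WT mice, with 7 in the fit of 12 libraries, they were 3 (2994) without TMM factors and 12 (3186) with a filter of 1 count in any library. With 10 counts in every library, where 10 members were tested, there was 1 (1524). Limma with pseudocounts of 1 and 0.1 gave 3 (1720) and 1 (1640). There were 4 (2254) with length and GC trends removed, 15 (5582) without the libraries named with L and 3 (1848) with only the groups compared. Without the WT ethanol libraries with Xist, which leaves 1 library in that group, the members' median was -0.75. At an adjusted p under 0.05, with 0 in the fit of 12 libraries, DESeq2 gave 1 (489) and the fit without the libraries named with L 12 (3220). For ethanol in KO mice, with 1 (465) in the fit of 12 libraries, DESeq2 gave 2 (620). There were 0 without TMM factors (395), with 1 count in any library (646), with the highest transcript (365) and with trends removed (204). With the first letter as a covariate (243) and without the libraries named with L (603) there were also 0. For genotype after saline, with 5 in the fit of 12 libraries, there were 8 (3396) in DESeq2, 8 (3266) with 1 count in any library and 2 (1781) with 10 counts. Limma gave 3 (1796) and 3 (1688), the fit with trends removed 1 (2023) and that without the libraries named with L 15 (5863). At an adjusted p under 0.05, again with 0 in the fit of 12 libraries, they were 2 (711) in DESeq2 and 11 (3782) without the libraries named with L. For genotype after ethanol, with 1 (477) in the fit of 12 libraries, 0 were left without TMM factors (396), with 10 counts (264) and with the highest transcript (385). With only the groups compared (680) and without the libraries named with L (950) 0 were left as well. For the interaction, with 2 in the fit of 12 libraries, there were 0 (2292) without TMM factors, and 1 (1696) and 1 (1649) in limma. There were 0 (1528) with trends removed and 6 (3206) without the libraries named with L. For Treatment, with 3 in the fit of 12 libraries, there were 0 (376) with 10 counts, and 1 (698) and 1 (670) in limma. Without the libraries named with L there were 14 (4581), and 7 (1230) at an adjusted p under 0.05. For Genotype, with 3 in the fit of 12 libraries, there were 1 (1112) without TMM factors, 5 (1489) with 1 count in any library and 0 (504) with 10 counts. The highest transcript gave 1 (1008), limma 1 (828) and 1 (767), and the fit with trends removed 1 (1104). Without the libraries named with L there were 16 (5115), and 8 (2426) at an adjusted p under 0.05. Leaving out each library in turn gave 3 to 14 members for ethanol in WT mice (0 to 8 at an adjusted p under 0.05), 0 to 2 for ethanol in KO mice, 2 to 12 for genotype after saline (0 to 7 at an adjusted p under 0.05), 0 to 1 for genotype after ethanol, 0 to 7 for the interaction, 2 to 9 for Treatment and 1 to 10 for Genotype. The highest of these came without WT saline replicate 1 for both comparisons with WT saline, the interaction and both main effects, and the lowest for Genotype without WT saline replicate 2, WT ethanol replicate 1, KO saline replicate 3 or KO ethanol replicate 3. Without WT saline replicate 1 the counts over all 14996 symbols were 4751 (ethanol in WT mice), 5039 (genotype after saline), 3538 (interaction), 2833 (Treatment) and 3437 (Genotype). These were also the highest over all symbols with 1 library left out, where the lowest were 1417, 1647, 1473, 528 and 552 in the same order. Without TMM factors the median of all symbols moved to 0.49 in both comparisons with WT saline, and that of the members was -0.08 and -0.32. Depth limits the cytokine genes most, with 17.0 to 75.0 counts over all libraries for the 5 members not tested.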
